A study of Mus musculus with 106 samples.

Results

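The Apoe-Apoc cluster is a compact run of 4 apolipoprotein genes on mouse chromosome 7, Apoe, Apoc1, Apoc4 and Apoc2, which lie within 29.7 kb of each other (mm10, chr7:19671579-19701310). The 4 genes were chosen by name, out of 21887 protein-coding genes of the RefSeq table for this build. Each was followed through every deposited list of chromatin immunoprecipitation (ChIP) peaks, where a peak counted when its centre lay in the gene body or in the 10 kb on either side. Each was also followed through the 4 deposited lists of regions gained in ATAC-seq, an assay of open chromatin, where the measure was the percent of the gene body inside those regions.

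The study compared livers of wild type (WT) mice and of mice labelled Foxa2-KO, given in full as Foxa2loxP/loxP;Alfp.Cre, a deletion driven by the Alfp promoter in the liver lineage. Livers were taken 4 h after a ligand or its vehicle (Veh): GW4064, an agonist of the bile acid receptor FXR, or GW3965 or T09 (T0901317), agonists of the oxysterol receptor LXR. The labels give no dose. They describe oral gavage, while the series text speaks of injection. Mice were 8 to 12 weeks old for ATAC, Foxa2 and FXR, and C57BL/6 mice of 3 months for LXR and PPAR, whose antibodies were raised against the alpha forms. The lists cover Foxa2 binding in WT only (Veh, GW3965, T09, GW4064-Veh, GW4064), FXR in both genotypes with GW4064 and its vehicle, LXR in both genotypes with vehicle, T09 and an agonist labelled only GW, and PPAR in both genotypes with vehicle and all 3 ligands. ATAC regions were called in the ligand samples against vehicle, for GW3965 and T09 in WT and for GW4064 in both genotypes.

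Apolipoproteins are the protein coat of lipoprotein particles. ApoE, made mainly by hepatocytes and also by macrophages, is the ligand by which receptors on hepatocytes take up remnant particles. ApoC-II is the cofactor that lipoprotein lipase needs, ApoC-I inhibits the cholesterol ester transfer protein and hinders remnant uptake, and ApoC-IV is a minor member whose role is less well defined. Liver expression of the human cluster is known to depend on shared hepatic control regions that lie downstream of APOC1 rather than at each promoter, and in macrophages and fat the genes respond to LXR through separate downstream enhancers. Foxa2 is a forkhead pioneer factor that can bind its sites in closed chromatin. FXR, LXR and PPAR are type II nuclear receptors, which bind DNA as heterodimers with RXR.

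The genes stand in the order Apoc2 (chr7:19671579-19677941), Apoc4 (chr7:19678084-19681460), Apoc1 (chr7:19689480-19692659) and Apoe (chr7:19696244-19701310). Apoe, Apoc4 and Apoc2 are read on the minus strand, so that Apoc2 is farthest downstream of Apoe. A readthrough gene, Gm44805, spans Apoc4 and Apoc2. Clptm1 (chr7:19631580-19665030) flanks the cluster beyond Apoc2. Tomm40, which encodes the channel of the mitochondrial import complex, begins at chr7:19701313, 3 bases beyond the end of the Apoe gene body. The promoter table lists 3 start sites for Apoe, at 19699188, 19698621 and 19698398. All lie inside the gene body, whose farthest end is 2122 bp upstream of the first of them. Distances below are from this 5′-most start.

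Stretches upstream of 3 starts are shown, because each has the hexamer that nuclear receptors recognise, or a variant of it, and each lies at least in part in a region gained with GW3965. Capitals mark AGGTCA or GGGTCA, the 6 letters searched for on both strands. AGGTCA was present in 16.3% and GGGTCA in 13.7% of all 32851 promoter windows of RefSeq (GRCm38.p6, 250 bases before to 50 after a start), so that neither is rare. Such a match is a description and not evidence of binding. All sequences are minus strand, 5′ to 3′, and end on the base before the start.
Apoe, chr7:19699189-19699438: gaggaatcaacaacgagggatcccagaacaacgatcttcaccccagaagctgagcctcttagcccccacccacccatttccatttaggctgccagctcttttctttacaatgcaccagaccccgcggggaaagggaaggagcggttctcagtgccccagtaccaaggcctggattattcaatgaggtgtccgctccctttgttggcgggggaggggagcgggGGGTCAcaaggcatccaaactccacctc
Apoc4, chr7:19681461-19681710: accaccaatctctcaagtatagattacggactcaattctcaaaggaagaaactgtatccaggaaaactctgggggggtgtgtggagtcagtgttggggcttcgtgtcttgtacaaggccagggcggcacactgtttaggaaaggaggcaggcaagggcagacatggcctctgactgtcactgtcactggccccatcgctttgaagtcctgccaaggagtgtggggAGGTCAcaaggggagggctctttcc
Apoc2 as far as the end of Apoc4, chr7:19677942-19678083: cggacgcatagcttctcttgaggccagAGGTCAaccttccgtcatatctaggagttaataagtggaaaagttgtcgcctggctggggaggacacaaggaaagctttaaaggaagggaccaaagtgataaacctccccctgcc

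The hexamers of Apoe and Apoc4 stand at nearly the same place, starting 28 and 25 bases before the start. Apart from their first letters, which differ, they belong to the longest run of letters that these windows of Apoe and Apoc4 share. This run, GGTCACAAGG, has 10 bases and was present in 42 promoter windows, or 0.128% of all. The run was looked for after the letters had been seen. In Apoc2 the hexamer shown starts 115 bases before the start, and a second AGGTCA lies 42 bases after it. The longest runs that Apoc2 shares with Apoe and with Apoc4 were 7 and 8 bases. The promoter table had no entry for Apoc1.

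Foxa2 peaks were the most frequent entries at the cluster. Of 173769 entries in the 23 ChIP lists, 25 lay at a member, and 23 of these were Foxa2 peaks, beside 1 FXR and 1 LXR peak and 0 PPAR peaks. A place counts once in each list that holds it, and the lists differ in length. The 23 of 25 therefore cannot be read as a preference of the cluster for Foxa2. The longest had 25318 entries for Foxa2, 22705 for FXR, 14219 for LXR and 4094 for PPAR. All 5 Foxa2 lists held a peak at each of the 4 genes, which 9.98% of all genes did by the same rule. In single lists all 4 members had a peak, against 12.1% of all genes with vehicle, 36.9% with GW3965, 39.2% with T09, 17.8% with the GW4064 vehicle and 38.8% with GW4064. The windows of neighbouring members overlap, so that 1 peak can count for up to 4 genes. The Foxa2 lists have 1 labelled sample each, and the labels of 3 of them speak of 3 replicates in a single raw file. Each list stands for a whole condition with no value per sample, so no difference between lists could be set against the spread between mice, and none was tested.

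The 2 vehicle lists held 2 peaks each, at the same places, and the ligand lists held 8 with GW3965, 5 with T09 and 6 with GW4064. The ligand lists are longer as a whole, with 21245, 25318 and 22666 entries against 4348 with vehicle and 7306 with the GW4064 vehicle. Over all genes the mean number of peaks was 0.167 with vehicle, 0.862 with GW3965 and 0.848 with T09. It was 0.258 with the GW4064 vehicle and 0.787 with GW4064. The higher counts with ligand at the cluster thus cannot be set apart from the longer lists. Merged by overlap, the Foxa2 peaks formed 10 sites, of which 2 were in all 5 lists, 2 in the 3 ligand lists and neither vehicle list, 1 in both LXR agonist lists and 5 in a single list.

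**Figure D1:**
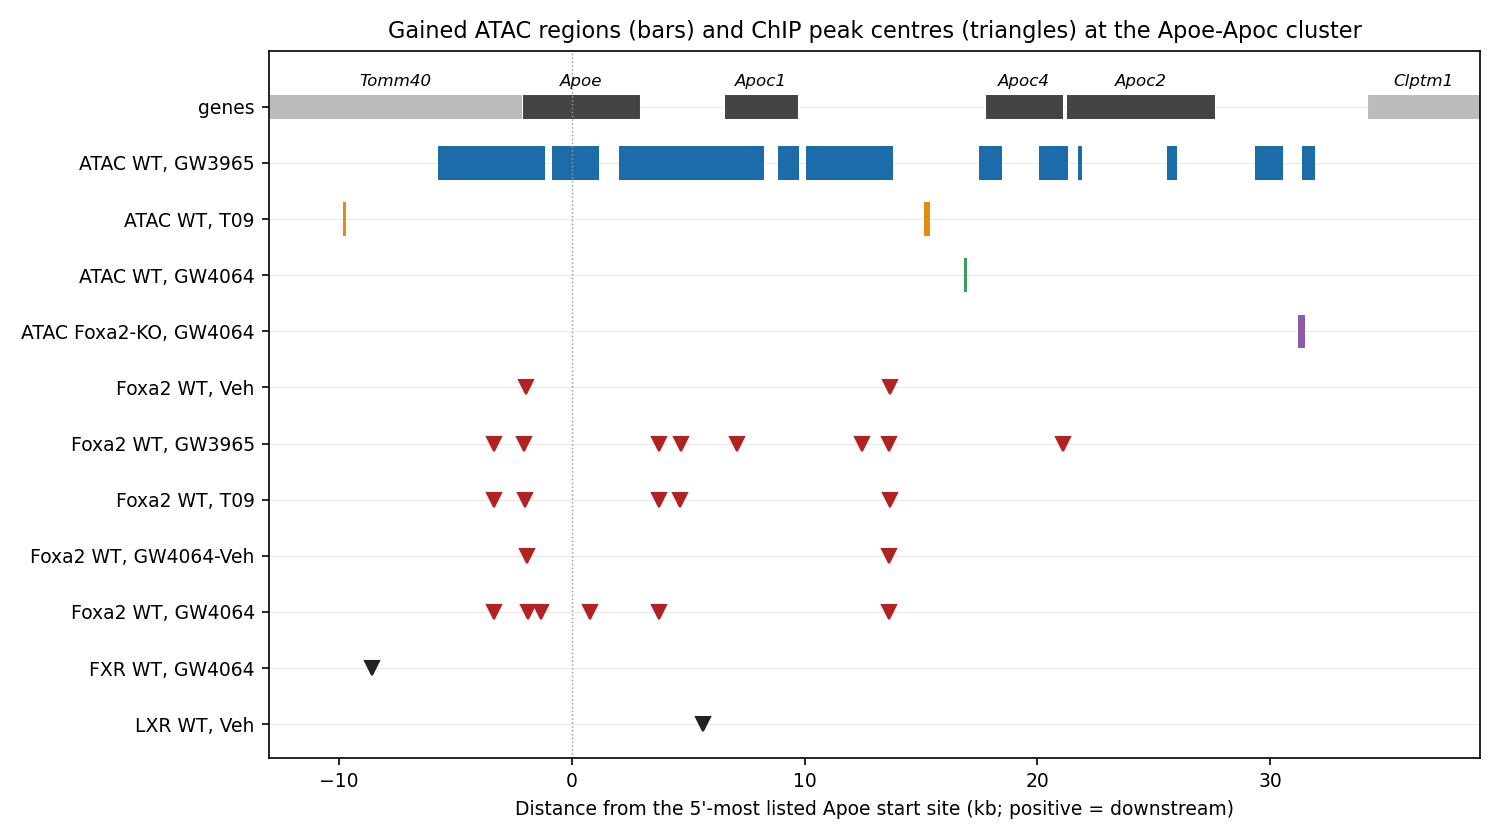
Map of the cluster, with distance from the 5′-most Apoe start in kb on the horizontal axis and 1 line for the genes and for each list with an entry there. Bars are gained ATAC regions, of which the narrowest are widened to stay visible, and triangles are peak centres. The 11 bars of GW3965 run across the cluster, the other 3 ATAC lists show 1 or 2 narrow bars, and the 2 columns of 5 triangles are the Foxa2 sites common to all Foxa2 lists.

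One of the constant sites lies at the 5′ end of the Apoe gene body, where it meets Tomm40. The stretch common to all 5 lists was chr7:19700948-19701202, 255 bp long, upstream of the first listed Apoe start. It was entry 99 of 21245 with GW3965 and entry 187 of 25318 with T09, which is 0.466% and 0.739% of the way down each list. With GW4064 it was entry 480 of 22666, with the GW4064 vehicle entry 163 of 7306, and with the other vehicle entry 213 of 4348. The peak measured 675 bp with GW3965, 585 bp with T09, 424 bp with vehicle, 362 bp with the GW4064 vehicle and 259 bp with GW4064. It was thus wider than its vehicle peak with both LXR agonists and narrower than its vehicle peak with GW4064. Peaks were also narrower across the GW4064 list as a whole, with a median of 124 bp against 171 bp with its vehicle, and slightly wider with GW3965 (276 bp) and T09 (293 bp) than with vehicle (244 bp). The Foxa2 lists carry neither q-value nor fold, and how their entries were ordered is not given in the sources used here, so an entry number is only a place in its list and not a measure of strength.

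The other constant site lies in the middle of the cluster, in the interval downstream of Apoc1 and upstream of Apoc4. Its common stretch was chr7:19685477-19685636, 160 bp long and 13.6 kb downstream of the Apoe start. Its place was farther down every list than that of the Apoe site, at entry 1774 with vehicle, 2003 with GW3965, 3386 with T09, 1760 with the GW4064 vehicle and 1735 with GW4064. Its width ranged from 164 bp with the GW4064 vehicle to 276 bp with GW3965. This single peak is the one that gave Apoc2 and Apoc4 their place in all 5 lists.

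The sites seen with all 3 ligands and neither vehicle flank Apoe on both sides. One, at chr7:19695317-19695576, lies between Apoc1 and the end of Apoe, 3.74 kb downstream of the start, and was entry 6993 with GW3965, 9021 with T09 and 7745 with GW4064. Its partner, at chr7:19702415-19702636, lies in Tomm40, 3.34 kb upstream of the start, and was entry 11880, 16418 and 8349. Each of these entry numbers is higher than the number of entries in the matching vehicle list, 4348 or 7306. The order of entries is not given, and why the vehicle lists lack these sites was not tested.

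Peaks found in fewer lists lay both between and inside the genes. A site between Apoc1 and Apoe at chr7:19694345-19694651 was held by both LXR agonist lists and not by GW4064. With GW3965 alone there were 3 more, in Apoc1 (chr7:19691968-19692231), between Apoc4 and Apoc1 (chr7:19686609-19686814), and at the Apoc2 promoter (chr7:19677992-19678172). The last of these covers the upstream AGGTCA of Apoc2 shown above. With GW4064 alone there were 2, a 27 bp peak upstream of the Apoe start (chr7:19700513-19700539) and a 123 bp peak at chr7:19698333-19698455, over the innermost listed start of Apoe. No site was found with T09 alone: all 5 T09 peaks overlapped a GW3965 peak.

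The 123 bp peak at the innermost Apoe start holds the one full forkhead match, TGTTTAC on either strand, in the promoter windows of the 3 genes. The 30 bases around it are shown with the match in capitals, read on the strand of the gene and thus as the reverse complement, GTAAACA.
Apoe inner start, chr7:19698386-19698415: cggcaaggggagGTAAACAgacctttggga
TGTTTAC was present in 3.65% of all promoter windows. The related letters TGTTTGT, found in 6.61% of windows, lie in the same peak 37 bases after that start. TGTTTGT also lies 165 bases before the Apoc2 start, inside the peak found with GW3965 there. The letters under the 2 constant sites fall outside the promoter windows and were not analysed here.

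Per gene, Apoc1 and Apoe had the most Foxa2 peaks and Apoc2 and Apoc4 the fewest. Apoc1, in the middle of the cluster, had 2 peaks with vehicle, 7 with GW3965, 5 with T09, 2 with the GW4064 vehicle and 6 with GW4064. Apoe had 1, 6, 4, 1 and 5 peaks in the same order. Apoc2 and Apoc4 had 1 peak in every list but GW3965, where each had 3. A count as high as that of Apoc1 with GW3965 was found at 1.94% of all genes, as high as that of Apoe at 2.76%, and as high as that of Apoc2 and Apoc4 at 10.7%. The mean over all genes with GW3965 was 0.862 peaks and the median 0. These counts carry no error, since each comes from 1 list.

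**Figure D2:**
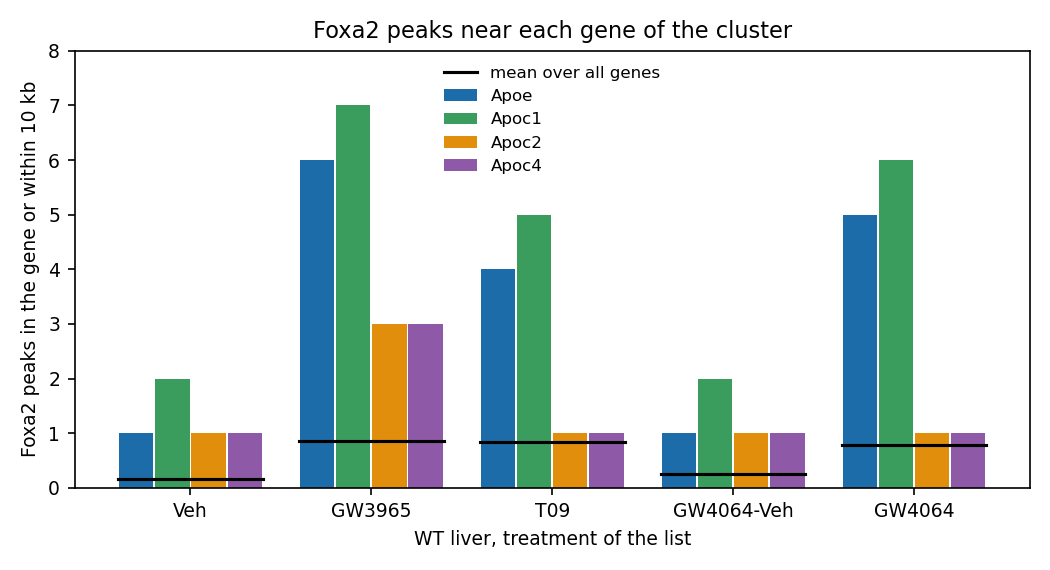
Number of Foxa2 peaks with their centre in the gene or within 10 kb (vertical axis) for each gene of the cluster in the 5 WT Foxa2 lists (horizontal axis), with the mean over all 21887 genes as a black line. Apoc1 reaches 7 and Apoe 6 peaks with GW3965, against 2 and 1 with vehicle, and every bar is above the mean of its list. The mean itself is 0.862 with GW3965 and 0.167 with vehicle.

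In ATAC-seq much of the cluster lay in regions gained with GW3965. No member had a base in a region gained with T09 or GW4064. With GW3965 the gained regions covered 81.3% of Apoc1 (2585 of 3180 bp), 76.9% of Apoe (3898 of 5067 bp), 52.9% of Apoc4 (1785 of 3377 bp) and 10.5% of Apoc2 (671 of 6363 bp). Thus 3 of 4 members had at least 25% of the gene body covered, against 2.26% of all genes. Among all genes 0.420% were covered as far as Apoc1, 0.471% as far as Apoe, 0.891% as far as Apoc4 and 5.48% as far as Apoc2. These shares were not matched for gene length, on which a percent of the gene body depends. The same region can also cover parts of neighbouring members. The mean over all genes was 2.41% and the median 0%. At least 1 base was covered in 4 of 4 members with GW3965, against 43.6% of all genes. With T09, 0 of 4 members reached the 25% limit, against 1.54% of all genes, and 0 of 4 had any base covered, against 43.2%. With GW4064 the count was likewise 0 of 4 in WT, against 1.94% of all genes, and 0 of 4 in Foxa2-KO, against 1.66%. No member had any base covered with GW4064, against 43.8% of all genes in WT and 48% in Foxa2-KO. With 4 adjoining genes, these counts of 0 cannot be set apart from the shares of all genes. Absence from a list does not show that accessibility stayed the same.

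**Figure D3:**
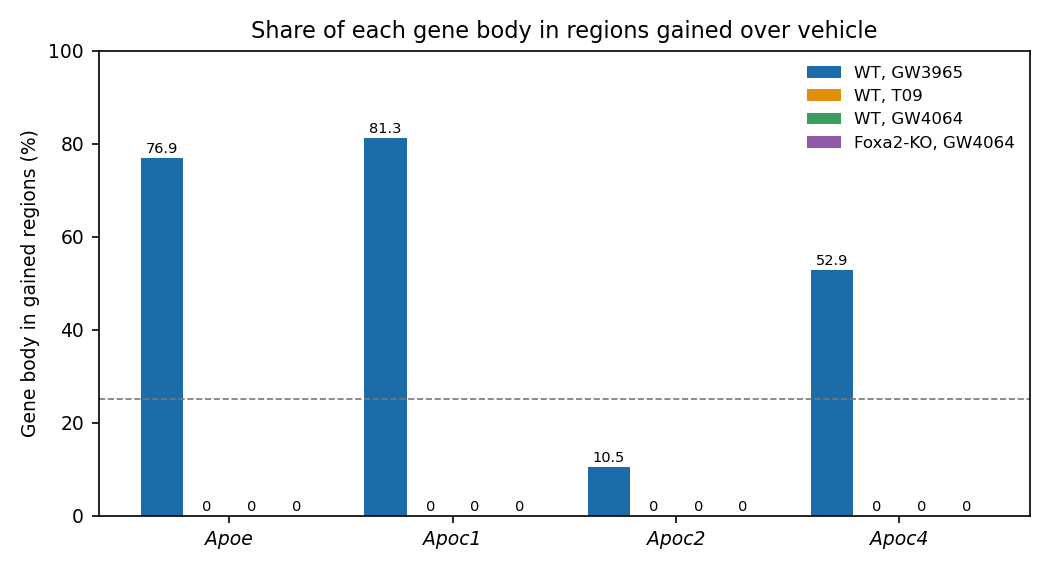
Percent of each gene body inside regions gained over vehicle (vertical axis) for the 4 genes in the 4 ATAC comparisons. The dashed line is the 25% limit. With GW3965 Apoc1, Apoe and Apoc4 stand at 81.3%, 76.9% and 52.9% and Apoc2 at 10.5%, and every other value is 0%.

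Within 10 kb of the genes GW3965 gained 11 regions, from 148 to 6239 bp wide, which covered 56.1% of the stretch from the first to the last base of the 4 genes. The region with the smallest q-value lies outside every gene body. It runs from chr7:19685378 to 19689143 (3766 bp) in the interval between Apoc4 and Apoc1 and was entry 44 of 62838, with the authors' fold of 1.84 over vehicle and a q-value of 1.56e-35. Only 0.525% of the GW3965 regions were at least as wide. It holds the constant Foxa2 site of that interval near its Apoc4 end and the GW3965 site at 12.5 kb.

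The widest region joins Apoc1 and Apoe. It runs from chr7:19690936 to 19697174, 6239 bp, from inside Apoc1 across the interval to the 3′ part of Apoe. It was entry 76, with a fold of 1.39 and a q-value of 3.49e-24, and 0.145% of GW3965 regions were at least as wide. With GW3965, 3 Foxa2 peak centres lie in it. Nearer the Apoe start 2 stretches were gained with a smaller fold and a larger q-value. The region over the 3 listed starts (chr7:19698039-19700024) had a fold of 1.16 and a q-value of 0.0313. That over the 5′ end and Tomm40 (chr7:19700330-19704928), which holds the constant Foxa2 site of Apoe, had a fold of 1.17 and a q-value of 0.0014.

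Gained regions over Apoc4 and Apoc2 were narrower than those over Apoe and between the genes, and their folds lay within the same range. Apoc4 was covered from both ends, by chr7:19680703-19681686 over its start (fold 1.22, q-value 0.0301) and by chr7:19677870-19679110 over its end and the Apoc2 start (fold 1.21, q-value 0.0467). Apart from its start, Apoc2 held regions of 148 bp (fold 1.79) and 451 bp (fold 1.48) alone. Folds across the cluster, from 1.16 to 1.84, were low beside the median of 3.38 over all GW3965 regions. That median is set by narrow regions, with a median width of 126 bp, and the 4882 regions of 1000 bp or more had a median fold of 1.31.

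The gain was bounded on both sides. In windows of 10 kb stepped across the locus, GW3965 regions covered 17.9% of the window beyond Apoc2, 25.8% of that over Apoc2 and Apoc4, 54.1% of the next, 88.3% of that over Apoc1 and Apoe, 34.8% of the first window in Tomm40 and 3.03% of the next. Over Clptm1, Relb and Clasrp, on the Apoc2 side, the remaining 8 windows held no gained base with GW3965. On the other side a separate rise to 33.6% lay over Nectin2, a cell adhesion molecule, where T09 covered 11.3%. The genome held 36 windows of 265913 with coverage as high as the window over Apoc1 and Apoe, and the mean was 0.760%. Widening the margin from 10 kb to 50 kb on each side took the Foxa2 peaks from 23 to 24.

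**Figure D4:**
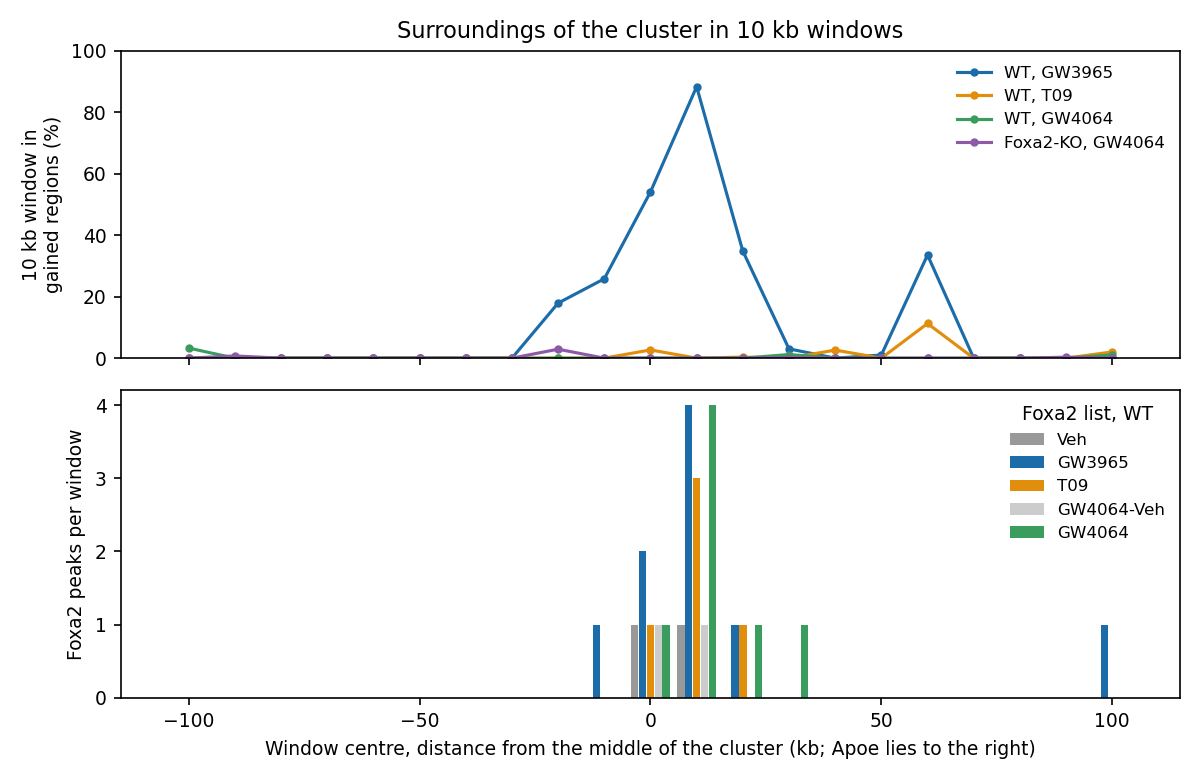
Coverage of 10 kb windows by gained ATAC regions (upper panel, percent) and Foxa2 peaks per window (lower panel) against distance from the middle of the cluster in kb. GW3965 coverage peaks at 88.3% over Apoc1 and Apoe and is 0% from 30 kb outward on the Apoc2 side, and most Foxa2 peaks lie in the windows with GW3965 coverage.

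GW3965 and T09 are different compounds that both activate LXR, and at this cluster their lists shared Foxa2 sites and differed in gained accessibility. Of the 8 Foxa2 peaks with GW3965, 5 overlapped a T09 peak, and of the 5 with T09 all 5 overlapped a GW3965 peak. The T09 ATAC list, with 60868 regions nearly as long as that of GW3965, held 2 regions within 10 kb of the genes. One was 268 bp wide at chr7:19683795-19684062, in the interval between Apoc4 and Apoc1, with a fold of 2.10 and entry 2721. The other was 35 bp wide in Tomm40. T09 thus covered 0.901% of the 29.7 kb stretch against 56.1% with GW3965, and its region in the interval did not overlap the GW3965 one. All 23 Foxa2 centres at the cluster, which form 10 sites, lay in GW3965 regions, those of the T09, GW4064 and vehicle lists included. For T09, 0 of 5 centres lay in T09 regions. With 10 kb either side, GW3965 regions covered 44.4% of the cluster and T09 regions 0.609%, so T09 regions left little room for a centre. The shares over all Foxa2 peaks are not given here, so neither count can be called particular to the cluster. Each of these 2 ATAC lists was made from 2 ligand samples and the 2 samples of its own vehicle group, with no value per sample. The GW3965 and T09 lists thus do not share a vehicle control, and how far the vehicle groups differ was not tested. The labels give no dose, so whether the doses were matched is not given in the sources used here, and the difference was not tested.

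With GW4064 no member was covered either. In WT it gained 1 region of 6 bp in the cluster, between Apoc4 and Apoc1 at chr7:19682271-19682276. Its Foxa2 list held 6 peaks at the cluster, and 0 of these 6 centres lay in a GW4064 region. In Foxa2-KO the 1 region, of 292 bp with a fold of 1.46, lay outside the cluster on the Clptm1 side (chr7:19667706-19667997). Neither genotype therefore had a listed gained base in any member, so that there was no listed GW4064 gain within a member in WT to compare with the mutant. The 8 mutant ATAC samples with an LXR agonist or its vehicle were not analysed here, so the GW3965 gain has no counterpart in Foxa2-KO.

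Few entries of the nuclear receptor lists lay at the cluster, and with 4 genes whose windows overlap most of these counts cannot be set apart from the share of all genes. In the WT vehicle list of LXR, 2 of 4 members (Apoe and Apoc1) had a peak, against 9.38% of all genes. It was a single 79 bp peak at chr7:19693511-19693589, between the 2 genes, entry 926 of 4803 with a q-value of 0.0285, inside the wide GW3965 region. The LXR lists with an agonist held none at any member in WT, where 25.5% of all genes had a peak with GW and 14.6% with T09. In Foxa2-KO the 3 LXR lists also held none, where 0.489%, 16.3% and 7.85% of all genes had one with vehicle, GW and T09. Each WT LXR list comes from 1 labelled sample and each mutant list from 3. The LXR lists of the 2 genotypes are also named with different limits on the false discovery rate. The largest q-value in the GW lists was 0.05 in both genotypes.

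With FXR, 1 of 4 members (Apoe) had a peak in the WT GW4064 list, against 30.5% of all genes. This was a 19 bp entry in Tomm40, 8.59 kb upstream of the Apoe start (chr7:19707767-19707785, entry 2633 of 22705). The other 3 FXR lists held none at a member, against 13.5% of all genes in the WT vehicle list and 7.84% and 6.8% in the mutant lists with vehicle and GW4064. The largest q-value in the mutant FXR lists was 0.015, and the WT FXR lists carry no q-value, so their limits cannot be compared. The 8 PPAR lists held none. There the share of all genes with a peak was 4.12% with vehicle, 0.274% with GW3965, 0.722% with T09 and 4.23% with GW4064 in WT, and 6.73%, 4.56%, 3.64% and 4.54% in the same order in Foxa2-KO. In all 9 pairs of WT and Foxa2-KO receptor lists, the mutant list had no entry at the cluster. In 7 of the pairs the WT list had none either, so that loss or gain of receptor binding in the mutant was not measurable here.

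Other apolipoprotein genes were covered in other combinations. Of 11 further ones, 4 had at least 25% of the gene body covered with GW3965, 4 with T09, 1 with GW4064 in WT and 2 with GW4064 in Foxa2-KO, against 2.26%, 1.54%, 1.94% and 1.66% of all genes. Their median coverage was 5.70% with T09 and 0% in the other 3, and over all genes it was 0% in all 4. Apoa1 and Apoc3, which encode the main HDL protein and an inhibitor of lipoprotein lipase, were covered 100% with both LXR agonists. Apoa5, an activator of triglyceride breakdown, and Apoa4 were covered 0% with GW3965, 100% and 67.6% with T09, and both 100% with GW4064 in Foxa2-KO. Apoa2, a second HDL protein, gave the pattern of the Apoe-Apoc genes, with 93.6% for GW3965 and 0% for the other comparisons. Apob, the core protein of VLDL, had 91.7% with GW3965, 0% with T09 and 65.7% with GW4064 in WT. A Foxa2 peak in all 5 lists was found at 5 of these 11 genes and at 4 of 4 in the cluster, against 9.98% of all genes.

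**Figure D5:**
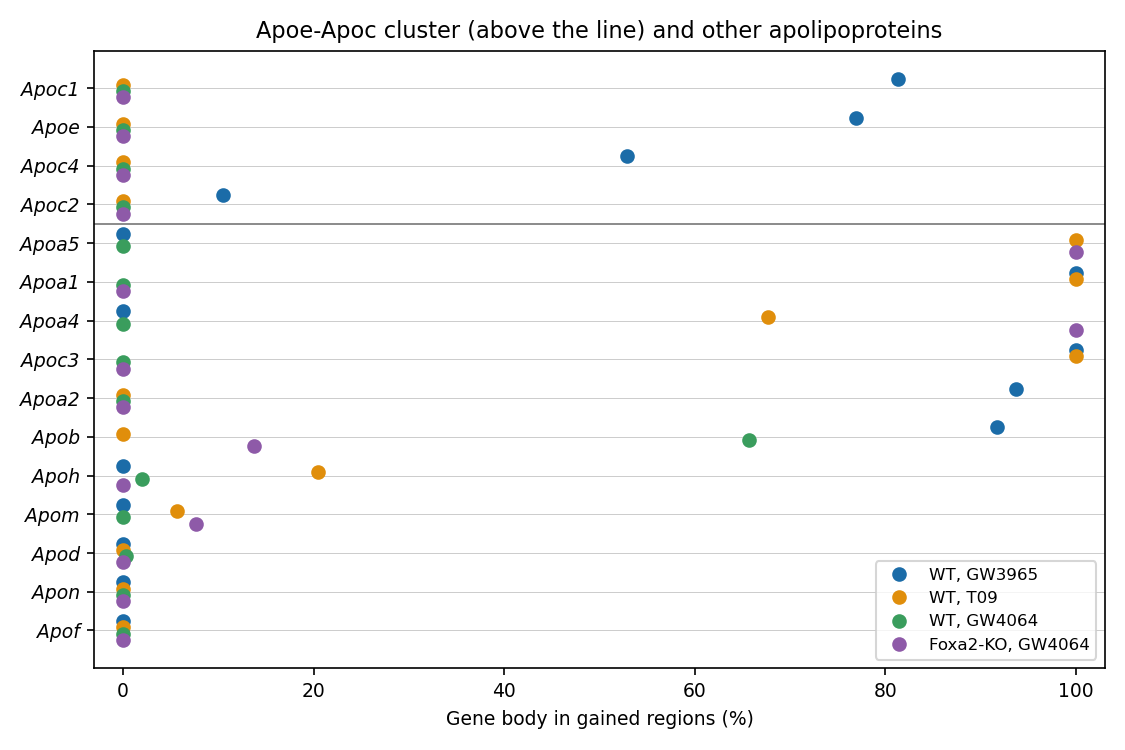
Percent of the gene body in gained regions (horizontal axis) for the 4 genes of the cluster, above the line, and 11 other apolipoprotein genes, with 1 colour for each ATAC comparison. In the cluster GW3965 alone leaves 0%, whereas Apoa1 and Apoc3 reach 100% with GW3965 and T09, and Apoa5 reaches 100% with T09 and with GW4064 in Foxa2-KO.

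The next list held proteins that act on lipoproteins. Among 20 such genes, 1 passed 25% with GW3965, 0 with T09, 1 with GW4064 in WT and 0 in Foxa2-KO, against 2.26%, 1.54%, 1.94% and 1.66% of all genes. The median coverage of these 20 was 2.49%, 0.536%, 2.25% and 0.0451% in that order. The one that passed was Angptl8, a regulator of lipoprotein lipase, with 80.8% for GW3965 and 39.9% for GW4064 in WT. Scarb1, the HDL receptor, had 8.15% with GW3965, 3.23% with T09 and 17.7% with GW4064 in WT, its highest value. Foxa2 peaks in all 5 lists were found at 8 of these 20 genes, against 9.98% of all genes.

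Among 20 established LXR targets 7 passed 25% with GW3965, 0 with T09, and 2 with GW4064 in each genotype, against 2.26%, 1.54%, 1.94% and 1.66% of all genes. Their median coverage was 12.3% with GW3965, 1.11% with T09, 3.32% with GW4064 in WT and 0.257% in Foxa2-KO. Thrsp had 100% with GW3965 and 91.5% with GW4064 in WT, Scd1 94.8% and 17.6%, and Fasn 88.5% and 9.79%, all with 0% for T09. Srebf1, the regulator of fatty acid synthesis, had 76.9%, close to Apoe, together with 48.5% for GW4064 in WT. With GW4064 in Foxa2-KO the genes that passed were Srebf1 (33.1%) and Fasn (31.2%). Cyp7a1, the rate-limiting enzyme of bile acid synthesis, had 68.5% with GW3965 and 0% in the other 3, the pattern of the cluster. The sterol exporter Abca1 had 14.9% with GW3965 and 2.12% with T09.

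Whole liver was measured, so a change in cell makeup and a change within cells cannot be told apart. Of 12 hepatocyte markers 4 passed the 25% limit with GW3965, 0 with T09, 3 with GW4064 in WT and 0 in Foxa2-KO, and 8 had a Foxa2 peak in all 5 lists. Over all genes the shares were 2.26%, 1.54%, 1.94% and 1.66%, and 9.98% for Foxa2. Of 12 markers of Kupffer cells, the macrophages of the liver, none passed the limit in any ATAC list and none had a Foxa2 peak in all 5 lists. The same held for 12 stellate cell markers. The Kupffer cell marker nearest the limit was Cd68, with 24.7% for T09 and 22.5% for GW4064 in Foxa2-KO. Of 12 endothelial markers 1 passed with GW3965 and 4 had a Foxa2 peak in all 5 lists. Of 10 cholangiocyte markers none passed and 1 had such a peak. The part of these cells in the values of the cluster was not tested.

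The combination of lists with a peak was also found at other genes. The Jaccard index (lists in common divided by lists held by either gene, over the 23 ChIP lists) reached 1 with 12 other genes for Apoe, the leading ones being Zc3h11a, Ankar, Sap18b, Ugt2b37 and Gm527. These shared its peaks by list but not its accessibility: Zc3h11a had 4.01% of its body covered with GW3965 and the other 4 had 0%. For Apoc1 29 genes had an index of 1, led by Fahd1 (46.3% with GW3965) and Dcaf11 (96.9%). For Apoc2 and for Apoc4, which have peaks in the 5 Foxa2 lists and no other, 478 genes did. Ties were ordered by the smallest difference in the 4 ATAC coverages, so a like coverage in the leading genes follows from that order. Nr1i3, which encodes the xenobiotic receptor CAR, came first for Apoc4, with 52.6% covered with GW3965 and 0% in the other 3 comparisons. Tex12 came first for Apoc2, with 10.7%. Of the flanking genes, Tomm40, whose window takes in most Apoe peaks, had 27.7% covered with GW3965, and Clptm1 had 0% in all 4 comparisons and no peak in any list.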

How the data were processed

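Peaks and regions were called by the authors with PeakSeq on mm10, per the series text and the submitters' processing notes, ChIP against input and ATAC ligand against vehicle; replicates of a group share 1 list. BWA is named in those notes without a version, and RNA-seq was not analysed here. The deposited lists give positions, and 19 of 27 also a q-value as set by the authors; 5 give the authors' fold, a linear ratio of the ligand or ChIP signal to its control. Total reads per sample are not given in the sources used here, so depth is unknown and no interval is given. The mutant FXR lists hold 28147 and 7254 blank entries, which were left out.

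Positions were made 1-based and joined to 21887 protein-coding genes of RefSeq GRCm38.p6 with Python 3.11.15 and NumPy 2.4.6. The code was tested on simulated data. All 4 members matched, and 3 had promoter entries. Sequences are credited to RefSeq. With 1 list per condition no test was run, and counts of members and of the main lists are given beside the share of all genes meeting the same rule. Genes of each list were named by the highest ATAC coverage over the 4 comparisons, then the number of ChIP lists (up to 6 a list), and alike genes by the Jaccard index, with ties broken by ATAC coverage and genes within 100 kb left out. Some genes that this rule names are not reported here. Members and lists were chosen with earlier results of these data known. Alternatives were window, peak width, q-value, fold, list length and coverage limit.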

Additional observations from a re-analysis of the deposited data

How the results depend on the processing

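The 25 ChIP peaks at the cluster became 8 when the gene bodies alone were counted and 5 with the first 500 entries of each list. The other 6 alternatives gave between 22 (peaks of at least 100 bp) and 26 (50 kb either side). The 3 members with at least 25% of the gene body covered with GW3965 became 0 with regions of fold 2 or more and 1 with the first 500 regions; a q-value of at most 0.01 left 2, with Apoe at 37.7%, Apoc1 at 81.3% and Apoc4 at 0%. With the Apoe body ended at its first listed start, an alternative chosen after seeing the data, Apoe stood at 70.7%. The 5 T09 peaks shared with GW3965 were the same with 50% overlap. Lists of equal length also left 5, but the last of them is entry 17162 of the T09 list. A cut to the 21245 entries of the GW3965 list therefore could not remove any. The 0 peaks in mutant receptor lists stayed 0, and neither alternative could have added one. With equal list lengths the receptor peaks in WT went from 2 to 1. Of 114 alternatives for single values, 82 were classed as the same and 32 as moved. Counts and percents cannot fall below 0, so that none of these reversed was fixed in advance. The class called the same is broad and holds Apoc1 at 54.2% with the first 500 regions, against 81.3%. It also holds counts of 0 that a stricter limit could not have raised. The WT GW4064 ATAC list, the Foxa2 lists and the WT FXR lists carry no q-value or fold, so those limits could not be applied to them. No paired analysis was possible because each condition has 1 list with no value per sample.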
